A study of Citrus sinensis and Citrus junos and Citrus trifoliata with 12 samples.

Results

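In grafted navel orange trees, 99 of 26559 listed genes were higher in the scion on Citrus junos roots, in stem and leaf alike. This holds by the rule given below, whose mirror, higher on Poncirus trifoliata roots, gave 105 genes. 'Lane Late', a navel orange (Citrus sinensis, LL), was the scion. One rootstock was Ziyang xiangcheng (Citrus junos, Cj) and the other trifoliate orange (Poncirus trifoliata, Pt). The 99 genes are those with an FPKM (read fragments scaled by gene length and library size, as deposited) of at least 2 in both Cj stem and both Cj leaf libraries. In addition, the lowest Cj stem library stood at least 1.5 times above the highest Pt stem library, and the same held in leaf. A gene that a library did not list was taken as 0. The stem and leaf values therefore chose the genes, and what is said of them, including the difference between leaf and stem, is a description that supports nothing further. The root values took no part in the choice and are the only ones read as tests.

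The design had 6 groups of 2 libraries each: roots, stem and leaf of Cj+LL trees, and roots, stem and leaf of Pt+LL trees. Stem and leaf of every tree were 'Lane Late' tissue, while the roots were Citrus junos or Poncirus trifoliata, so root libraries compare species and scion libraries compare one cultivar on different roots. All trees stood in a single orchard, planted in 2009, every library carries the stage 140 DAF, and sequencing took place in 2015 on a BGISEQ-500. The title speaks of saline-alkali stress, but no label separates stressed from unstressed trees, and the labels name no separate tree for a library, so the p-values cover only the spread among these libraries, which may be technical.

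In a grafted tree the rootstock takes up water and minerals and sends them to the scion in the xylem together with hormones, while sugars, proteins and some RNAs pass through the phloem in both directions. Citrus rootstocks are known to alter the vigour, mineral nutrition and stress tolerance of the scion that they carry. The deposited files pair no ID with a gene name, and 0 of the 26559 IDs matched the RefSeq table of sweet orange, so no function is given for any gene, no pathway list could be applied and no tissue label could be checked against marker genes. The same IDs served for reads of all 3 species. A root difference between the species can therefore hold a difference in how well reads aligned, which was not tested. Library totals ran from 9356633 to 11383332 estimated counts, and a count of 0 allows a level of up to 0.264 to 0.321 CPM (counts scaled to library totals), a floor of 3 counts that covers counting error only.

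The size of the difference on Cj was moderate for most of the 99 genes and larger in leaf than in stem for 83 of them. In bulk tissue, fewer cells of a type and less RNA per cell cannot be told apart. The ratio of mean FPKM, Cj over Pt, had a median of 2.02 in stem (range 1.53 to 6.75) and 2.51 in leaf (range 1.79 to 15.4). The ratio was at least 2 in both tissues for 46 genes. It was at least 4 in 14 genes in leaf and in 3 genes in stem. As counts only, since these contrasts chose the genes, edgeR's quasi-likelihood test called 79 of the 99 higher on Cj in stem, against 2.51% of all genes tested, and 0 lower, against 1.91%. It called 95 of the 99 higher on Cj in leaf, against 4.43% of all genes tested, and 0 lower, against 3.88%. Of the 99 genes 78 were called higher on Cj in both tissues, against 222 of all 21261 genes tested, so other genes share this call. The 3 genes called in neither tissue were Cs7g16340, orange1.1t01118 and Cs4g18650, named after their values were seen.

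**Figure D1:**
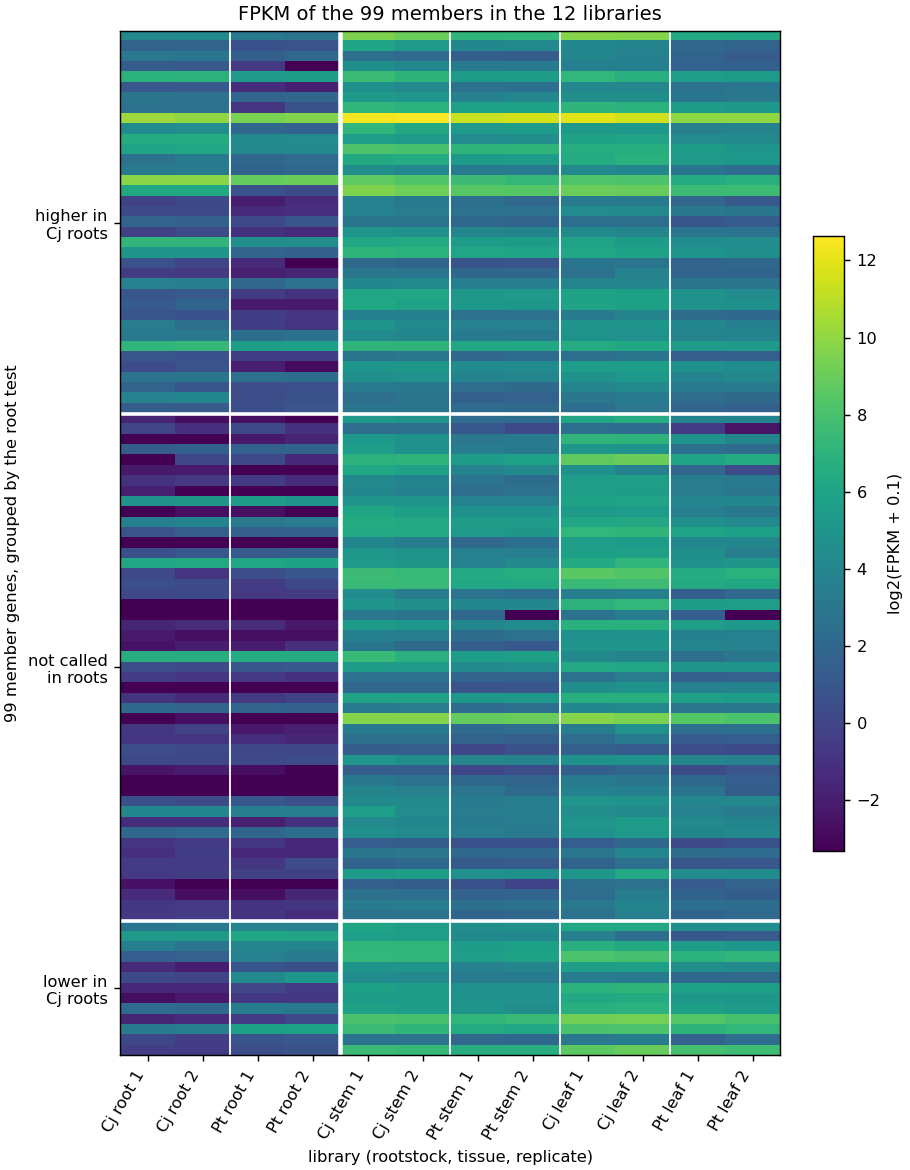
Level of each of the 99 genes (rows) in each of the 12 libraries (columns), as log2(FPKM + 0.1), with rows grouped by the root test into 37 higher, 49 not called and 13 lower in Cj roots. In stem and leaf every row is lighter on Cj than on Pt, as the choice of genes requires, while the root columns range from dark (FPKM of 0) to the lightest rows (over 1000).

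Levels of the set covered a wide range. The median FPKM of the 99 genes was 31.9 and 26.7 in the Cj stem libraries, 32.2 and 33.3 in the Cj leaf libraries, 12.1 and 11.5 in the Pt stem libraries, and 14.0 and 13.1 in the Pt leaf libraries. In roots it was 1.32 and 1.19 on Cj and 0.96 and 1.03 on Pt. The typical root level was thus about 1 FPKM, while expression in the Cj scion was required by the rule itself. Root levels varied widely: 42 of the 99 genes reached 1 FPKM in all 4 root libraries, and the highest root value was 1253. Over the 4 Cj scion libraries the mean FPKM of a gene ran from 2.64 to 4666, with a median of 29.8. The median was 17.5 over the 15629 genes that met the FPKM minimum.

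Cs1g01700 had the largest combined difference and was also among the 5 most abundant genes of the set. Its FPKM was 707 and 522 in Cj stem against 138 and 154 in Pt stem. In leaf it was 847 and 833 on Cj against 82.8 and 74.2 on Pt. On Cj both leaf libraries lay above both stem libraries, whereas on Pt the leaf libraries lay below the stem libraries. The mean ratio was 4.21 in stem and 10.7 in leaf. Its root libraries, which did not choose it, held 16.5 and 20.1 FPKM in Cj and 8.53 and 6.91 in Pt, without overlap. Between the root groups Cs1g01700 was higher in Cj (log2 fold change 1.32 ± 0.20, SE, edgeR adjusted p = 1.4e-04).

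Cs9g01630 and Cs8g04700 were leaf-leaning genes with almost no root signal. Cs9g01630 stood at 38.1 and 30.1 FPKM in Cj stem, 5.22 and 4.88 in Pt stem, 66.8 and 93.2 in Cj leaf and 14.0 and 14.3 in Pt leaf. Cs8g04700 stood at 35.8 and 27.7 FPKM in Cj stem, 8.01 and 9.0 in Pt stem, 139 and 128 in Cj leaf and 27.6 and 15.7 in Pt leaf. In both genes leaf exceeded stem on either rootstock. Their root libraries held at most 0.22 FPKM for Cs9g01630 and at most 0.21 FPKM for Cs8g04700. The leaf minus stem difference, averaged over rootstocks, was 1.49 ± 0.14 for Cs9g01630 and 1.85 ± 0.16 for Cs8g04700 (log2, SE).

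Cs3g03680 and Cs4g10710 followed the same order of libraries. Cs3g03680, a gene of 438 bases, stood at 123 and 135 FPKM in Cj stem, 43.0 and 55.5 in Pt stem, 425 and 519 in Cj leaf and 63.9 and 90.1 in Pt leaf. Its counts were not all whole numbers, as happens when reads are divided between similar genes, so its level is less certain. Cs4g10710 stood at 20.2 and 14.7 FPKM in Cj stem, 7.10 and 4.85 in Pt stem, 46.5 and 51.0 in Cj leaf and 10.1 and 9.77 in Pt leaf. For either gene no root library exceeded 1.03 FPKM, and the root groups overlapped.

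Cs6g09160, Cs9g17610 and Cs2g21940 leaned to stem or to neither tissue. Cs6g09160, at 5.26 and 4.72 FPKM in Cj leaf against 0.57 and 0.08 in Pt leaf, had the highest mean ratio in leaf of the set, 15.4, on a low denominator. In stem it stood at 5.09 and 5.48 on Cj against 2.02 and 1.05 on Pt. Cs9g17610 stood at 48.4 and 26.9 FPKM in Cj stem, 10.9 and 8.69 in Pt stem, 34.0 and 28.9 in Cj leaf and 5.70 and 4.79 in Pt leaf. Its Cj stem libraries differed from each other by more than those of most genes of the set. Cs2g21940 stood at 75.4 and 56.1 FPKM in Cj stem, 13.8 and 18.2 in Pt stem, 25.9 and 13.1 in Cj leaf and 3.80 and 1.17 in Pt leaf. The last gene was near silent in roots, at 0.12 FPKM in each Cj library and with no entry, taken as 0, in both Pt libraries.

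**Figure D2:**
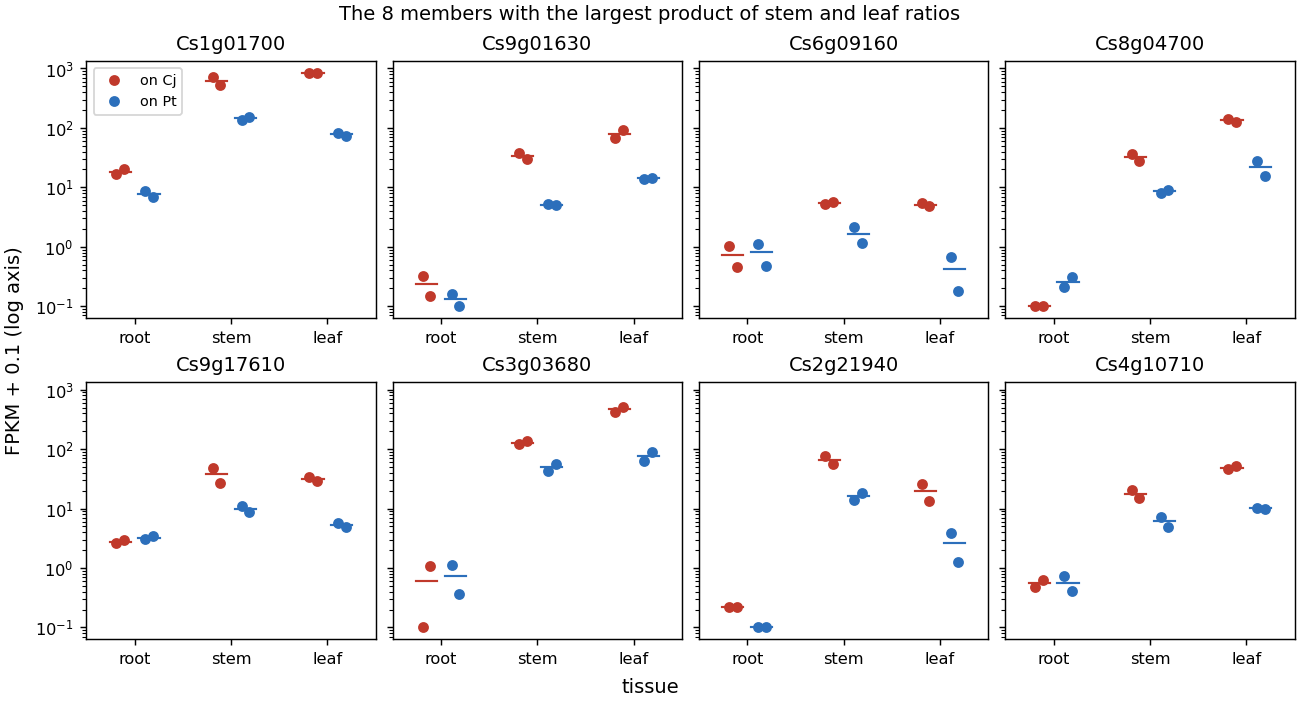
FPKM + 0.1 (log axis) in root, stem and leaf for the 8 genes with the largest product of stem and leaf ratios; points are single libraries, bars are means of 2 libraries, red on Cj and blue on Pt. In stem and leaf the red points lie above the blue ones in every panel, as the choice of genes requires, while in roots only Cs1g01700 of these 8 was called higher in Cj.

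The most abundant gene of the set was Cs1g07330, listed with a length of 207 bases. It stood at 5494 and 6359 FPKM in Cj stem, 2473 and 3123 in Pt stem, 3934 and 2877 in Cj leaf and 964 and 1032 in Pt leaf. Its root level was also high, at 1253 and 1020 FPKM in Cj and 675 and 777 in Pt. Stem libraries were the highest on each rootstock, and the root groups did not overlap. The root difference was 0.72 ± 0.17 toward Cj (log2, SE, edgeR adjusted p = 0.0039), a call that did not pass without Cj root replicate 1 (adjusted p = 0.0522) or with limma on log2(FPKM + 1) or log2(FPKM + 0.1) (adjusted p = 0.0629 and 0.0639).

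Orange1.1t04360 was abundant in the scion and nearly absent from roots. It stood at 819 and 805 FPKM in Cj stem, 443 and 510 in Pt stem, 870 and 697 in Cj leaf and 350 and 275 in Pt leaf. Of the 4 root libraries 3 had no entry for it, taken as 0, and the other had 0.06 FPKM. Orange1.1t00580 was abundant in the scion on both rootstocks, at 743 and 564 FPKM in Cj stem, 363 and 337 in Pt stem, 530 and 481 in Cj leaf and 196 and 195 in Pt leaf. Among roots it was abundant in Cj alone, at 75.4 and 77.4 FPKM in Cj roots and 1.55 and 1.18 in Pt roots.

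The root libraries asked whether the rootstocks' own tissue differed in the genes that differed in the scion. By edgeR 37 of the 99 genes were higher in Cj roots, against 27.4% of all 21261 genes tested, and 13 were lower, against 24.3%. The other 49 did not pass. All 99 genes entered this fit, but its filter on low counts was over all 12 libraries, so genes with little root signal entered through their scion counts. With the root libraries alone 72 of the 99 genes passed the filter and 27 did not. Of the 72, 41 were higher in Cj roots, against 33.5% of the 17613 genes in that fit, and 11 lower, against 33.6%. The median log2 fold change, Cj minus Pt roots, was 0.69 over the 93 members with any root count and 0.06 over all tested genes with any root count. With the other 6 members entered at 0, as the fit has them, it was 0.57 over the 99 genes and 0.02 over all genes tested. Among genes that met the same FPKM minimum in the Cj scion, 27.1% were called higher and 27.1% lower. At least 2-fold higher in Cj roots and called were 30 of the 99 genes, and 9 were at least 2-fold lower, against 14.5% and 11.5% of the genes at the FPKM minimum. These are counts without a test of the list itself.

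In FPKM, both Cj root libraries stood above both Pt root libraries for 51 of the 99 genes, against 36.1% of the genes at the FPKM minimum. The reverse held for 23, against 43.1%, and the root groups overlapped for 25. The mirror rule, which takes genes at least 1.5 times higher on Pt in both scion tissues, gave 105 genes. Of these, 31 (29.5%) were called higher in Cj roots, against 27.4% of all genes tested, and 33 (31.4%) lower, against 24.3%. The median root difference of the mirror list was -0.10 (log2). Both lists were read from the same root contrast, and the difference between them was not tested.

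**Figure D3:**
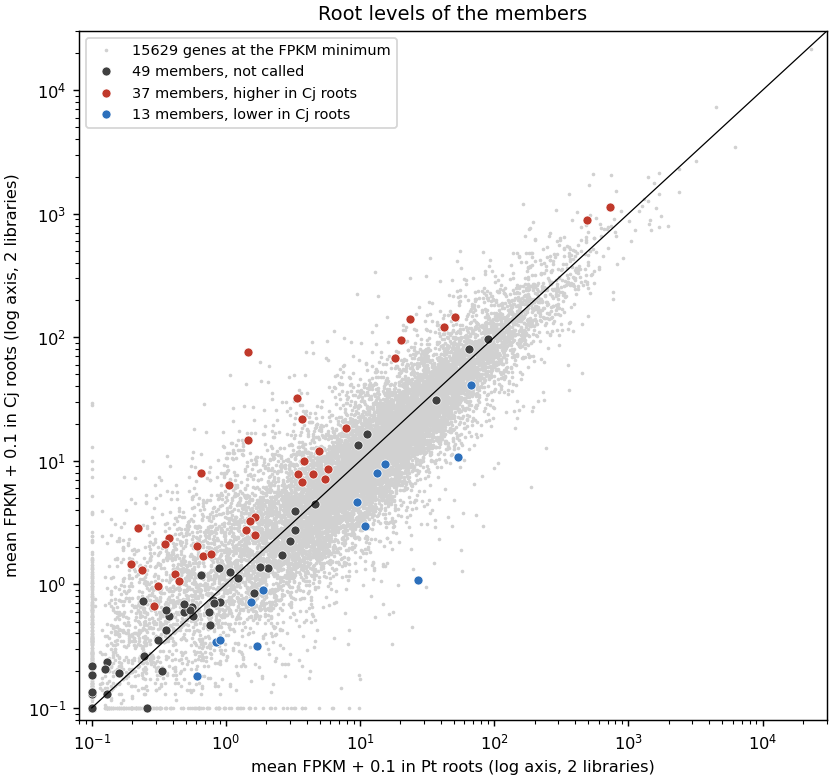
Mean FPKM + 0.1 in Cj roots against Pt roots (log axes, 2 libraries each); grey dots are the 15629 genes at the FPKM minimum, larger points the 99 genes, coloured by edgeR's call in roots. Red points (37, higher in Cj roots) lie above the line of equality, blue ones (13, lower) below it, and many of the uncalled genes sit near the lower left corner, where levels are close to 0.

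Genes higher in Cj roots as well as in the scion on Cj spanned low and high levels. Orange1.1t00580, described above, had the largest root difference among members with a root mean of at least 2 FPKM, a log2 fold change of 5.88 ± 0.21 (SE, edgeR adjusted p = 7.6e-09). Cs7g29530 stood at 10.3 and 5.42 FPKM in Cj roots and 0.69 and 0.42 in Pt roots. The Pt root values rest on 5 and 3 counts. Its log2 fold change in roots was 3.87 ± 0.53 (SE, edgeR adjusted p = 6.6e-05). In the scion it stood at 30.6 and 19.1 FPKM in Cj stem and 12.06 and 12.04 in Pt stem, and at 32.5 and 32.7 in Cj leaf and 16.5 and 11.8 in Pt leaf.

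Cs8g19520 was one of 8 genes whose mean level in Cj roots exceeded its mean over the Cj scion libraries. It stood at 13.7 and 15.6 FPKM in Cj roots and 1.26 and 1.47 in Pt roots, a log2 fold change of 3.50 ± 0.24 (SE, edgeR adjusted p = 2.4e-07). In the scion it stood at 5.25 and 6.86 FPKM in Cj stem, 2.97 and 3.18 in Pt stem, 7.88 and 9.35 in Cj leaf and 5.03 and 4.57 in Pt leaf. The scion libraries thus lay below the root libraries on Cj and above them on Pt. Its counts were not all whole. For this gene the ratio between rootstocks was larger in roots than in either scion tissue.

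On Cj, Cs1g16390 had the reverse order of tissues, with stem highest. It stood at 33.1 and 31.3 FPKM in Cj roots and 3.62 and 2.94 in Pt roots, a log2 fold change of 3.37 ± 0.19 (SE, edgeR adjusted p = 6.5e-08). In stem it stood at 137 and 115 FPKM on Cj against 65.3 and 63.8 on Pt, and in leaf at 71.5 and 59.6 against 30.8 and 24.6. Cs5g02010 stood at 6.19 and 6.42 FPKM in Cj roots and 0.43 and 1.48 in Pt roots. Its Pt root libraries differed from each other, and the log2 fold change of 2.80 ± 0.34 (SE, edgeR adjusted p = 2.5e-05) was 2.18 without Pt root replicate 1 and 3.91 without Pt root replicate 2. In the scion it was abundant, at 146 and 116 FPKM in Cj stem, 55.1 and 57.1 in Pt stem, 131 and 114 in Cj leaf and 45.0 and 36.7 in Pt leaf.

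The 13 genes lower in Cj roots went the other way. Such genes made up a smaller share of the set than of all genes tested (24.3%) or of genes at the FPKM minimum (27.1%). Orange1.1t02075 stood at 1.06 and 0.92 FPKM in Cj roots and 19.2 and 34.2 in Pt roots, a log2 fold change of -4.66 ± 0.31 (SE, edgeR adjusted p = 2.2e-07). In the scion the order of rootstocks was reversed, with 20.4 and 18.5 FPKM in Cj stem against 9.80 and 9.43 in Pt stem, and 10.9 and 9.91 in Cj leaf against 4.11 and 4.53 in Pt leaf. By mean, Pt roots were thus the highest of the 6 groups for this gene and Cj roots the lowest, though the lower Pt root library lay below the higher Cj stem library. Orange1.1t02573 stood at 9.81 and 11.4 FPKM in Cj roots and 50.9 and 56.2 in Pt roots (log2 fold change -2.28 ± 0.18, SE, edgeR adjusted p = 7.0e-07). Its scion values were 188 and 137 FPKM in Cj stem, 89.7 and 76.7 in Pt stem, 270 and 282 in Cj leaf and 126 and 150 in Pt leaf, and its counts were not all whole.

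Cs4g02970, Cs5g02320 and Cs1g11780 had the same opposition at smaller size. In roots Cs4g02970 stood at 2.61 and 3.17 FPKM in Cj and 12.1 and 9.29 in Pt, a log2 fold change of -1.81 ± 0.24 (SE, edgeR adjusted p = 5.3e-05). Its scion levels were far higher, at 154 and 148 FPKM in Cj stem, 47.8 and 59.0 in Pt stem, 272 and 242 in Cj leaf and 118 and 144 in Pt leaf. Cs5g02320 stood at 4.75 and 4.27 FPKM in Cj roots and 10.3 and 8.26 in Pt roots (-0.98 ± 0.19, edgeR adjusted p = 9.9e-04). Cs1g11780 stood at 7.11 and 8.56 FPKM in Cj roots and 13.1 and 13.3 in Pt roots (-0.68 ± 0.16, edgeR adjusted p = 0.0030). In none of these 3 genes did the root groups overlap. Scion values on Cj against Pt were 56.2 and 47.4 against 30.9 and 23.8 in stem for Cs5g02320, and 62.9 and 50.2 against 23.7 and 25.4 for Cs1g11780.

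Presence in roots was uneven across the set. With presence taken as an FPKM of at least 1 in both libraries of a root group, 42 of the 99 genes (42.4%) were present in roots of both rootstocks, against 79.9% of the genes at the FPKM minimum. A further 13 genes (13.1%, against 4.76%) were present in Cj roots alone and 5 (5.05%, against 3.28%) in Pt roots alone. The other 39 (39.4%, against 12.1%) were present in neither. Among the 42 genes present in both root groups 23 were called higher in Cj roots, against 26.6% of the 12487 genes at the FPKM minimum that were present in both, and 6 lower, against 29.7%.

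In all 4 root libraries 6 of the genes had no entry, which was taken as a count of 0: Cs5g05590, Cs5g18660, Cs7g16340, orange1.1t04366, Cs4g18510 and orange1.1t04132. That is 6.06% of the set, against 1.76% of the genes at the FPKM minimum. For these genes the root contrast has no information, and no fold change is given.

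Within the scion the genes differed in tissue preference. The difference between leaf and stem rests on the same libraries that chose the genes, so it is given as a description and nothing is read from the counts. Averaged over rootstocks, edgeR called 44 of the 99 genes higher in leaf than in stem, against 26.9% of all genes tested, and 24 higher in stem, against 27.8%. Among genes at the FPKM minimum the shares were 31.7% and 24.8%. The median log2 difference, leaf minus stem, was 0.25 over the 99 genes and -0.0025 over all genes tested. At least 2-fold and called were 21 genes toward leaf and 8 toward stem. At that cut no share of other genes was taken, and genes at the FPKM minimum also leaned to leaf.

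By that difference, the most leaf-enriched genes of the set were orange1.1t04366, Cs9g17160 and Cs5g18660. Orange1.1t04366 stood at 24.0 and 28.5 FPKM in Cj leaf and 12.7 and 14.5 in Pt leaf, against 3.86 and 4.11 in Cj stem and 1.66 and 1.79 in Pt stem. Cs9g17160 stood at 32.4 and 33.3 FPKM in Cj leaf and 15 and 13.1 in Pt leaf, against 7.19 and 4.57 in Cj stem and 2.62 and 1.97 in Pt stem. For both genes even the Pt leaf libraries lay above the Cj stem libraries, so the tissue difference exceeded the rootstock difference. Cs5g18660 stood at 122 and 149 FPKM in Cj leaf and 45.4 and 46.6 in Pt leaf, against 31.9 and 24.9 in Cj stem and 16.3 and 16.5 in Pt stem. The leaf minus stem differences were 2.98 ± 0.13, 2.68 ± 0.16 and 2.01 ± 0.11 in that order (log2, SE).

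The most stem-enriched genes were Cs2g06960, Cs5g09220 and Cs2g21940, the last described above. Cs2g06960 stood at 169 and 112 FPKM in Cj stem and 48.2 and 52.6 in Pt stem, against 18.1 and 13.9 in Cj leaf and 5.82 and 7.97 in Pt leaf. In roots it stood at 96.6 and 97.0 FPKM in Cj and 89.6 and 89.8 in Pt, and the root difference did not pass (log2 fold change 0.18 ± 0.18, SE, edgeR adjusted p = 0.426). Cs5g09220 stood at 51.0 and 47.4 FPKM in Cj stem and 19.4 and 17.7 in Pt stem, against 12.1 and 5.28 in Cj leaf and 1.96 and 2.34 in Pt leaf. It was likewise expressed in roots, at 40.0 and 41.8 FPKM in Cj and 70.6 and 64.3 in Pt. The leaf minus stem differences were -2.87 ± 0.15 for Cs2g06960, -2.66 ± 0.19 for Cs5g09220 and -2.08 ± 0.28 for Cs2g21940 (log2, SE).

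Root values were set beside tissue preference as a description. The 24 stem-enriched genes had a median root level of 11.9 FPKM over the 4 root libraries, against 14.0 over all stem-enriched genes at the FPKM minimum, and 15 of them were called higher and 3 lower in Cj roots. The 44 leaf-enriched genes had a median root level of 0.721 FPKM, against 5.75 over all leaf-enriched genes at the FPKM minimum, and 9 were called higher and 9 lower. Of the 31 genes called in neither direction 13 were higher and 1 was lower in Cj roots. Among all genes at the FPKM minimum, 33.8% of the 3871 stem-enriched ones were higher in Cj roots and 26.0% lower. For the 4947 leaf-enriched ones the shares were 23.7% and 30.5%, and for the 6806 called in neither direction 25.8% and 25.2%. The difference between the groups of the set was not tested.

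**Figure D4:**
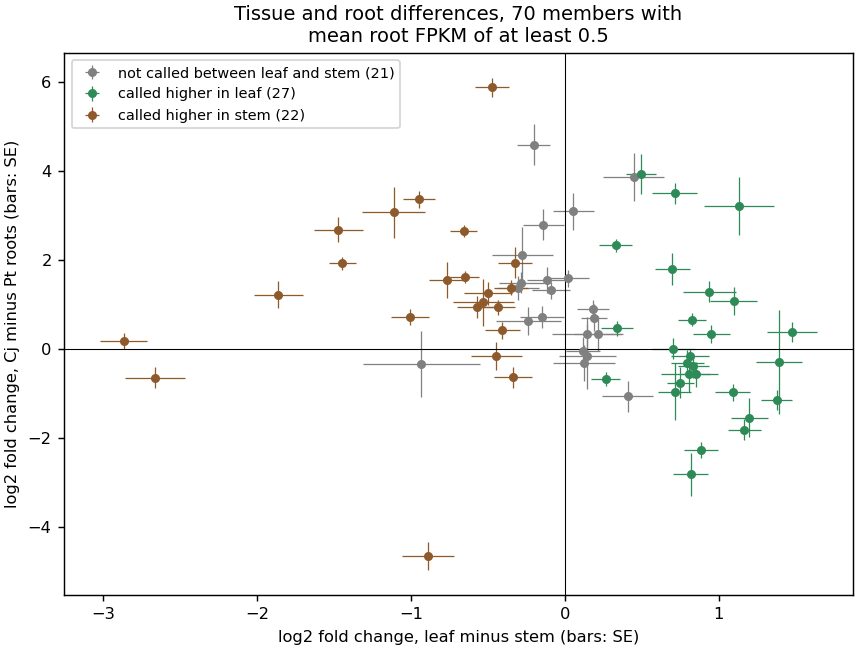
Log2 fold change of Cj minus Pt roots against log2 fold change of leaf minus stem (edgeR, bars are SE), for the 70 genes of the set with a mean root FPKM of at least 0.5. Most brown points (higher in stem) lie above 0 on the root axis, with orange1.1t02075 at -4.66 as the lowest, and green points (higher in leaf) lie on both sides of it.

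The members were spread over the ID series, and few were neighbours. Each of the 9 numbered starts from Cs1g to Cs9g held 7 to 13 of the genes, and 11 had IDs of the orange1.1t form (11.1%, against 15.4% of the genes at the FPKM minimum). There were 3 pairs of consecutive IDs in which both were members. Cs3g06830 and Cs3g06840 stood at 86.8 and 86.7 and at 176 and 175 FPKM in Cj stem, against 39.0 and 34.7 and 76.4 and 79.5 in Pt stem. In leaf they stood at 154 and 141 and at 169 and 193 FPKM on Cj, against 62.8 and 51.1 and 85.5 and 76.8 on Pt. Neither passed in roots, with edgeR adjusted p = 0.236 and 0.103. The counts of both were not all whole, as happens when reads are divided between similar genes, so their levels are less certain.

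The other 2 pairs did not share one root pattern. Cs3g01120 stood at 0.22 and 0.29 FPKM in Cj roots and 0.57 and 1.03 in Pt roots, a difference of -1.55 ± 0.44 (log2, SE, edgeR adjusted p = 0.0101), which did not pass without Cj root replicate 1 (adjusted p = 0.0658) or Pt root replicate 2 (adjusted p = 0.106). Its neighbour Cs3g01130 stood at 2.15 and 3.36 FPKM in Cj roots and 0.12 in each Pt library, on 2 counts each, a difference of 4.59 ± 0.46 (log2, SE, edgeR adjusted p = 5.0e-06). The neighbours thus moved in opposite directions between the root groups while sharing the scion difference. In the scion Cs3g01120 was the more abundant, at 271 and 258 FPKM in Cj stem, 146 and 169 in Pt stem, 600 and 631 in Cj leaf and 334 and 255 in Pt leaf. Cs3g01130 stood at 74.3 and 57.9, 36.0 and 35.4, 58.7 and 54.2, and 27.1 and 25.2 FPKM in the same 4 groups.

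Cs7g30010 and Cs7g30020 differed in level rather than in direction. Cs7g30010 stood at 198 and 162 FPKM in Cj stem, 85.2 and 99.3 in Pt stem, 375 and 319 in Cj leaf and 96.1 and 118 in Pt leaf. Cs7g30020 stood at 6.78 and 6.76, 3.76 and 3.85, 7.97 and 10.3, and 3.17 and 5.09 FPKM in the same order. In roots Cs7g30010 held 0.42 to 1.76 FPKM and did not pass (edgeR adjusted p = 0.227). Cs7g30020 held 0.98 and 0.63 FPKM in Cj roots against 1.65 and 1.90 in Pt roots and was called lower in Cj (-1.06 ± 0.35, log2, SE, edgeR adjusted p = 0.0208). That call did not pass without Cj root replicate 2 (adjusted p = 0.152) or Pt root replicate 2 (adjusted p = 0.0818).

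Gene models of the set were of ordinary length. The median length was 1803 bases (range 207 to 5009), against 1739 bases over the genes at the FPKM minimum. A single transcript was listed for 64 of the 99 genes (64.6%, against 55.5%). All estimated counts were whole numbers within 0.005 for 73 of the 99 genes (73.7%, against 73.4%). Named genes whose counts were not all whole include Cs3g06830, Cs3g06840, orange1.1t04360, orange1.1t04366, Cs5g18660, Cs5g27580, Cs5g02010 and Cs1g11780.

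The replicates on Cj were not equally far from Pt. Cj stem replicate 1 stood above replicate 2 for 74 of the 99 genes (74.7%), against 41.0% of the genes at the FPKM minimum, and by at least 1.5 times for 8 of them. No gene of the set had replicate 2 at least 1.5 times above replicate 1 in Cj stem. In leaf the imbalance was the reverse for a part of the set. Cj leaf replicate 2 stood at least 1.5 times above replicate 1 for 15 genes (15.2%), against 2.95% of the genes at the FPKM minimum, and the opposite held for 2 genes. Since the rule uses the lower Cj library of each tissue, these 15 genes met it in Cj leaf replicate 1 as well. The rule used these same Cj libraries, so the shares are descriptions.

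By median, the 15 genes were longer than the others. Their median length was 3061 bases, against 1775 for the other 84 genes. Their median FPKM in Cj leaf replicate 1 was 6.45, against 43.7. That library is the denominator of the ratio that picked them, so a low value there is partly built in. The genes with the largest gaps, Cs6g22060 (1874 bases) and Cs5g02490 (1803 bases), were near the median length of the set. Cs6g22060 stood at 10.3 and 26.9 FPKM in the Cj leaf libraries, the largest gap of the set (2.61 times), and at 9.76 and 9.36 in Cj stem. Cs5g02490 stood at 34.4 and 77.8 FPKM in Cj leaf and at 41.1 and 49.6 in Cj stem. All 15 differed by less than 1.3 times between the Cj stem libraries, as did many other genes of the set, for which no share was taken. In roots 2 of the 15 were called higher in Cj and 0 lower, against 27.4% and 24.3% of all genes tested. Across the 99 genes, Pearson's r of log2 length with the log2 ratio of the Cj leaf libraries was 0.28 and Spearman's rho 0.32. Over the genes at the FPKM minimum they were 0.05 and 0.06. Genes of one pair of libraries are not independent, so these are descriptions. These 15 genes were picked after their values were seen.

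**Figure D5:**
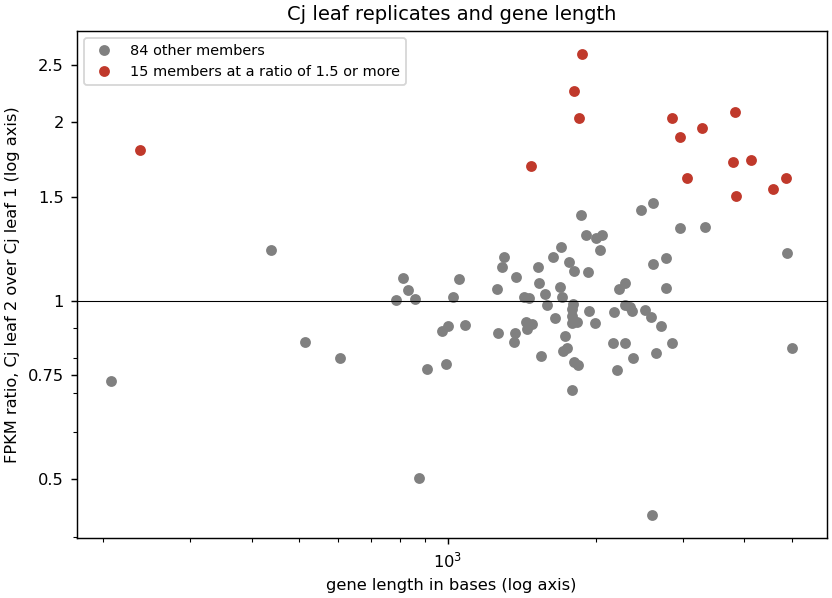
Ratio of FPKM in Cj leaf replicate 2 over replicate 1 against gene length in bases (log axes) for the 99 genes; red points are the 15 genes at a ratio of 1.5 or more. Of the red points 10 lie above 2500 bases and the other 5 at 237 to 1874 bases, among them the highest, at 2.61.

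Near the limit of the rule, members and non-members had almost the same values. Cs4g09380, just inside, had 9.81 FPKM in its lower Cj stem library and 6.54 in its higher Pt stem library. Cs3g22520 and Cs9g06390 were also just inside, each with a stem ratio of 1.502 between those libraries. Cs7g09100, just outside, had 23.2 FPKM in its lower Cj stem library and 15.5 in its higher Pt stem library, a ratio of 1.499, with a leaf ratio of 2.80. Cs5g21700 and Cs7g07940 stood just outside at 1.497 and 1.498 in stem.

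The median profile of the set was shared by genes that the rule left out. Over the 12 libraries, the genes most like the median member in log2(FPKM + 1) were Cs1g24810 (Pearson's r = 0.995), Cs3g10250 (0.995) and Cs4g18510 (0.994), and the first is no member. Cs1g24810 stood at 3.80 and 3.44 FPKM in Cj stem, 2.43 and 2.14 in Pt stem, 3.95 and 4.63 in Cj leaf and 2.20 and 2.45 in Pt leaf, and at most 0.40 in roots. Cs3g10250 stood at 33.9 and 24.2, 15.2 and 14.1, 29.5 and 28.3, and 15.2 and 13.7 FPKM in the same 4 groups, and at 1.02 to 1.18 in roots. The step from root to scion, which many genes share, weighs most in this r.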

How the data were processed

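Per the file headers, the authors deposited for each library a table of expected counts, which are estimated counts not scaled to depth, and of FPKM. The FPKM values deposited by the authors are scaled by gene length and library size. Aligner, counter, annotation and build: not given in the sources used here. Replicates were not pooled. The members and lists were chosen with earlier results of these data known. The rule was applied to FPKM of 26559 genes. Expected counts were rounded, filtered with filterByExpr (21261 genes kept), scaled by TMM and tested by quasi-likelihood F test (edgeR 4.0.16, limma 3.58.1, R 4.3.3) in one model of 6 group means over all 12 libraries, with 6 residual degrees of freedom. The contrasts were Cj minus Pt roots and leaf minus stem as a mean of the rootstocks. A gene was called at a Benjamini-Hochberg adjusted p under 0.05, adjusted across all genes of the fit. The SE was taken as log2 fold change over the root of F. The fit was tested on simulated counts. DESeq2 (1.42.0), limma on log2(FPKM + 1) and log2(FPKM + 0.1), another scaling, no filter, the libraries of the compared tissues alone, a replicate block and leaving out single libraries were alternatives.

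Genes named in the text are the 8 with the largest product of ratios (0.1 added to each value), the 5 most abundant in the Cj scion, the 5 largest and 5 smallest called root differences that did not overlap (mean root FPKM of at least 2), the 3 most leaf-enriched and 3 most stem-enriched, 3 on each side of the threshold, members in runs of consecutive IDs, and the 3 most like the median profile. Cs6g22060, Cs5g02490 and the 6 genes that no root library listed were named after their values were seen.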

Additional observations from a re-analysis of the deposited data

Results flagged for a closer look

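In 8 named genes that edgeR called lower in Cj roots, the root groups stood in the opposite order to the scion groups, with both Cj root libraries below both Pt root libraries and all Cj scion libraries above the Pt libraries of the same tissue. Genes called lower in Cj roots were 13 of the 99, against 24.3% of all genes tested. The rest of the 13 stood in the same order, with log2 fold changes down to -2.82. Among other named genes, Cs8g04700, Cs9g17610, Cs3g06830, Cs7g30010, Cs5g02490 and Cs3g10250 stood in that order but were not called. Called or not, this root order held for 23 of the 99 genes, against 43.1% of the genes at the FPKM minimum. The difference between root and scion was not tested, because the scion values chose the genes. The rule required the scion order, and the root order largely follows from the call. Of the 8 named genes, 5 were named for having the smallest called root differences. The log2 fold changes, Cj minus Pt roots, were -4.66 for orange1.1t02075, -2.28 for orange1.1t02573, -1.81 for Cs4g02970, -1.55 for Cs3g01120, -1.06 for Cs7g30020, -0.98 for Cs5g02320, -0.68 for Cs1g11780 and -0.65 for Cs5g09220. The call for Cs5g09220 (edgeR adjusted p = 0.0330) was the least stable of these. It did not pass in any of the 4 fits that left out 1 root library (adjusted p = 0.0574 to 0.154) or with limma on log2(FPKM + 0.1) (adjusted p = 0.0641).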

How the results depend on the processing

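The counts of genes called in roots and between leaf and stem stayed within 1.5 times under every alternative run, but the number tested did not stay the same. With the root libraries alone 72 of the 99 entered the fit, 41 higher and 11 lower, against 33.5% and 33.6% of all genes in that fit. Leaving out 1 library left a single library in its group, and counts of called genes from those fits are not given. The number of members depended on the rule: 17 genes at a ratio of 2, 355 at the lower ratio tried and 321 on group means (chosen after seeing the data). Without 1 scion library it was 106 to 186, with 186 without Cj stem replicate 2 and 162 without Pt stem replicate 1. The rule uses the lowest Cj and the highest Pt library, so leaving out 1 can only keep or add genes. All 99 stayed in each of these runs. Presence in Pt roots alone fell to 3 genes at an FPKM of at least 2. A lower ratio between the Cj leaf libraries gave 23 genes in place of 15 (chosen after seeing the data). Cs9g06390, called higher in Cj roots (log2 fold change 0.72, edgeR adjusted p = 0.0305), did not pass with DESeq2 (adjusted p = 0.0716) or limma on log2(FPKM + 1) (0.0712), or without either Cj root library or Pt root replicate 1 (0.0701 to 0.177). Same-numbered libraries of the root groups had a correlation of deviations of -0.06, those of the stem groups 0.13 and those of the leaf groups 0.07. These values cannot show whether same-numbered libraries shared a tree. With the replicate block 37 genes were higher and 13 lower in Cj roots, against 27.2% and 24.1% of all genes tested. In that fit 46 were higher in leaf and 24 in stem, against 26.8% and 27.5%. The depth left Pt root values of a few counts for Cs7g29530 and Cs3g01130.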

Other observations

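Cs7g16340, a gene of 237 bases, was listed in 1 of the 2 libraries of each Pt scion tissue. It stood at 18.3 and 16.3 estimated counts in Cj stem and 14.0 and 23.8 in Cj leaf. On Pt it had 9.72 counts in stem replicate 1 and 6.0 in leaf replicate 1, and had no entry, taken as 0, in replicate 2 of each tissue and in all 4 root libraries. Its fractional counts are of the kind that arise when reads are divided between similar genes. Within 10 IDs of each other, 8 pairs of members were found, of which 3 were consecutive. Another, Cs5g27580 and Cs5g27620, had 2 IDs between them. Cs5g27580 stood at 24.5 and 17.5 FPKM in Cj stem, 9.79 and 10.1 in Pt stem, 11.77 and 11.96 in Cj leaf and 3.19 and 3.05 in Pt leaf, and Cs5g27620 at 20.9 and 10.8, 6.76 and 5.63, 11.1 and 11.6, and 2.64 and 4.28 FPKM in the same groups. The choice of these genes followed from their values.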
